A study of Homo sapiens with 4 samples.

Results

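The interferon-stimulated effector genes are the genes whose products carry out the antiviral response that interferon calls for. They were taken as a fixed list of 42 gene symbols, and 41 of them had a transcript cluster of their own on the array, out of 22411 genes with a symbol in all. TRIM22 shares its transcript cluster with another gene and was therefore not analysed here. The measurements come from HCT116, an established human colon cancer cell line, that received either CDK8 siRNA or control siRNA at 50 nM and was harvested after 48 h. There were 2 arrays with CDK8 siRNA and 2 arrays with control siRNA, which the labels call biological replicates, and the labels do not give the control sequence. All cells of both groups were transfected with an siRNA and the lipid reagent Lipofectamine RNAiMAX, no untransfected cells are among the samples, and a single group received CDK8 siRNA, so loss of CDK8 and other effects of that siRNA cannot be told apart. Values are log2 RMA signals, in which a step of 1 is a doubling of signal, and differences are CDK8 siRNA minus control siRNA ± the standard error from limma.

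Interferons are secreted by cells that sense viral nucleic acid. They bind receptors on the same or on neighbouring cells, and the receptors' JAK kinases phosphorylate STAT proteins, which with IRF9 bind the interferon-stimulated response element of target promoters. The effector genes then block viral entry, translation, replication or release, and many are nearly silent in unstimulated epithelial cells. CDK8 is the kinase of the Mediator complex, which links transcription factors to RNA polymerase II.

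CDK8 itself had signals of 7.25 and 7.45 on the CDK8 siRNA arrays, against 9.99 and 10.04 on the control siRNA arrays, and fell by 2.67 ± 0.09. The median transcript cluster had a signal of 4.32 and 4.31 on the CDK8 siRNA arrays and 4.24 and 4.24 on the control siRNA arrays. The number of arrays limits the precision, and the labels do not say whether replicates were separate cultures, so the p-values reflect no more than the variation among these 4 arrays, which may be technical. The epithelial genes EPCAM, CDH1, KRT8, KRT18 and KRT19 had clear signal, whereas KRT20, VIL1, CDX1 and CDX2, markers of differentiated intestine, lay below the floor of signal defined further on in both groups. Of these 9 genes 2 rose, 0 fell and 7 did not pass. CDH1, the adhesion protein E-cadherin, had signals of 10.06 and 9.90 with CDK8 siRNA and 7.02 and 7.28 with control siRNA, a 7.11-fold rise (2.83 ± 0.11), and EPCAM rose by 0.65 ± 0.07. Of 7 blood cell markers 1 rose, CD68 (1.36 ± 0.11), and PTPRC, the pan-leukocyte marker, read 3.53 and 3.53 with CDK8 siRNA and 3.49 and 3.41 with control siRNA. The summed log2 signal of these 7 markers was 29.42 to 30.13 on the CDK8 siRNA arrays and 27.85 to 28.18 on the control siRNA arrays, and 5 of the 7 lay below the floor in both groups. Fibroblast markers rose in 2 of 5 genes (DCN and COL1A1) and endothelial markers in 1 of 5 (ESAM), where 14.3% of all genes were called higher. DCN lay below the floor in both groups (0.59 ± 0.06), and the differences of COL1A1 and ESAM were 0.26 ± 0.06 and 0.28 ± 0.06. The part of such markers in the results was not tested.

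The effector genes as a group were higher with CDK8 siRNA. Of the 41 genes 27 rose, 0 fell and 14 did not pass the threshold of 0.05 on the adjusted p from limma, whereas 29.8% of all genes were called in either direction, 14.3% higher and 15.5% lower. At an unadjusted p under 0.05 the counts were 30 higher and 0 lower, where 19.7% of all genes were higher and 19.0% lower. The median difference over the effector genes was 0.55, against 0.04 over all genes. It was positive in 40 of the 41 genes, and in 36 when arrays were quantile-normalized or centred. The arrays of the groups did not overlap, with CDK8 siRNA higher, in 38 of the 41 genes, which was so for 36.8% of all genes, and in UBE2L6 control siRNA was higher without overlap. A called difference of at least 1 on the log2 scale was found in 15 effector genes and in 3.19% of all genes, higher with CDK8 siRNA. For IFIT1 and IFI44, 2 of the 15, control siRNA signal lay below the floor defined further on. Measured against that floor the rise was at least 2.93-fold for IFIT1 and at least 1.87-fold for IFI44. Adjusted p-values of the 27 genes lay between 3.16e-04 and 0.0284. With 1 array left out fewer genes passed, although the median difference of the effector genes stayed between 0.495 and 0.63. Leaving out CDK8 siRNA replicate 1 or 2 left 13 or 14 effector genes called higher, leaving out control siRNA replicate 1 left 8, and leaving out control siRNA replicate 2 left 0. The smallest adjusted p over all genes was between 0.0412 and 0.0520 in these 4 fits, close to the threshold, and between 0 and 1101 of all genes were called higher, against 3212 with all arrays. In the last of them limma called 0 of all genes, and 26 effector genes were higher and 0 lower at an unadjusted p under 0.05.

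**Figure D1:**
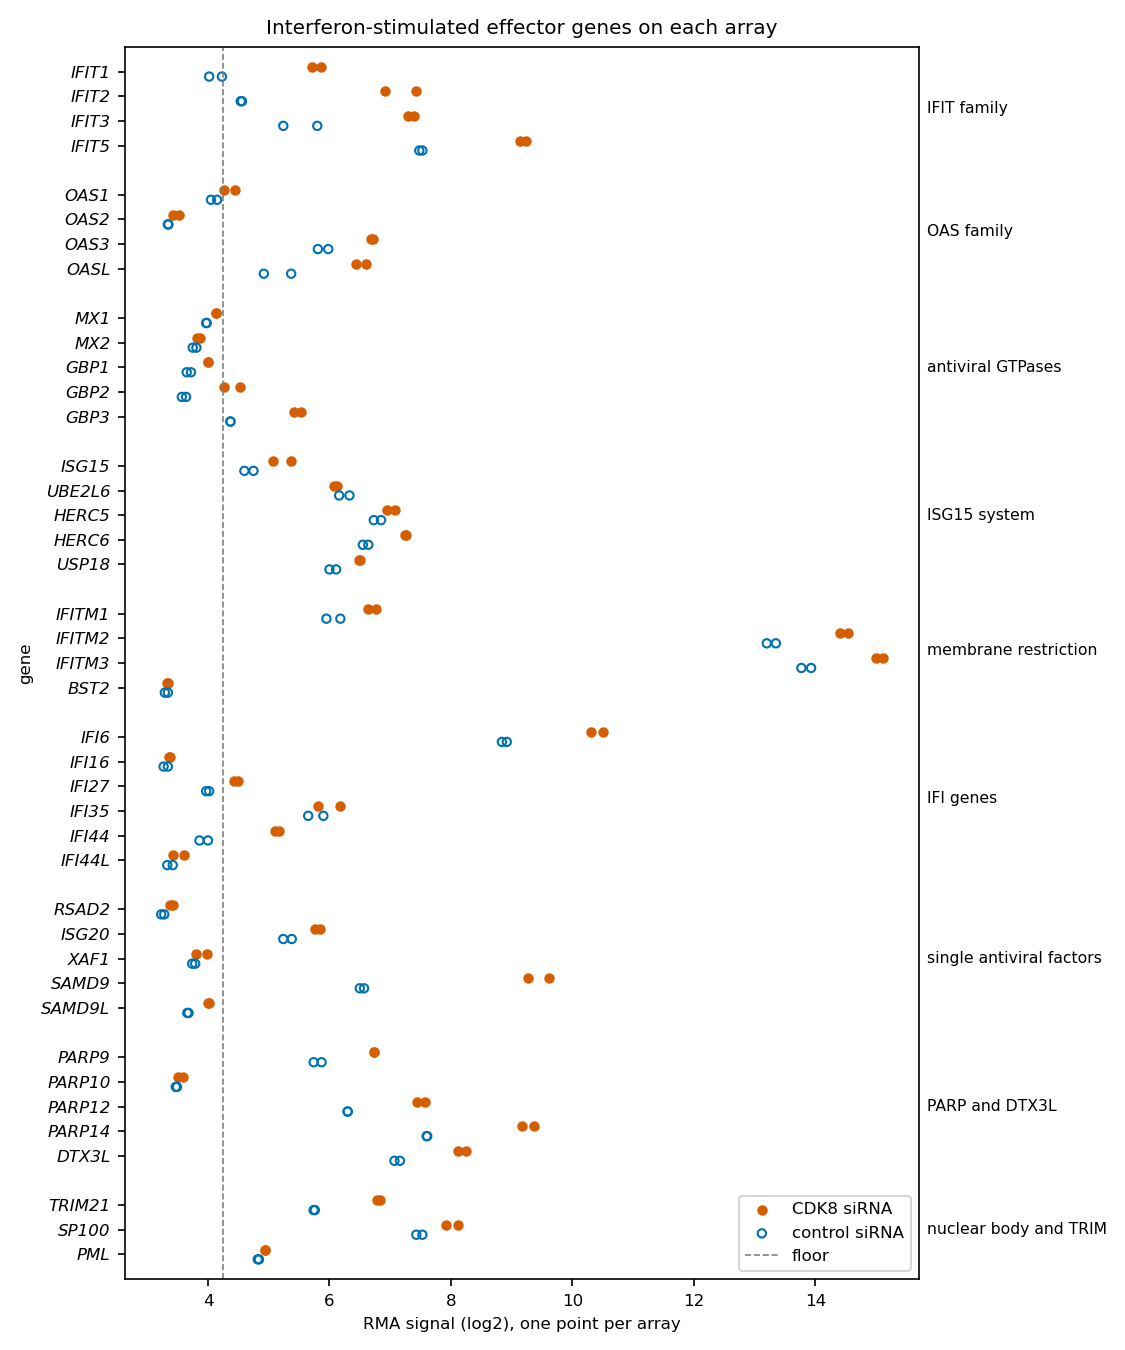
RMA signal (log2, x axis) of the 41 effector genes on each array, grouped by role. Filled points are the 2 CDK8 siRNA arrays, open points the 2 control siRNA arrays, and the dashed line is the floor of 4.24. The filled points lie to the right of the open ones in 38 genes, and several genes lie left of the floor in both groups.

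The genes of the IFIT family, whose products bind foreign RNA and block its translation, all 4 rose. The share of all genes called higher, to be set beside this and the family counts that follow, was 14.3%. IFIT2 had signals of 6.91 and 7.43 with CDK8 siRNA and 4.54 and 4.56 with control siRNA, a 6.15-fold rise (2.62 ± 0.18). IFIT3, which stabilises the complex of IFIT proteins, read 7.39 and 7.30 with CDK8 siRNA and 5.80 and 5.24 with control siRNA (1.83 ± 0.19, 3.54-fold). Even the lowest CDK8 siRNA array stood more than a doubling above the highest control siRNA array in both genes. IFIT5, an RNA-binding member that also promotes innate immune signalling, read 9.14 and 9.24 with CDK8 siRNA and 7.48 and 7.53 with control siRNA (1.69 ± 0.07). IFIT1, which binds messenger RNA caps that lack the methyl mark of the cell's own RNA, read 5.72 and 5.86 with CDK8 siRNA and 4.02 and 4.23 with control siRNA (1.67 ± 0.10). The SD between the control arrays was 0.15 for IFIT1 and 0.40 for IFIT3, and the IFIT3 rise had the largest standard error of the family.

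SAMD9, which restricts poxviruses, had the largest rise of the 41 genes. Its signals were 9.27 and 9.62 with CDK8 siRNA and 6.57 and 6.50 with control siRNA, a difference of 2.91 ± 0.13 that ranked 26 among all genes. Its paralog SAMD9L, the adjacent gene in the RefSeq annotation, read 4.0 and 4.01 with CDK8 siRNA and 3.66 and 3.68 with control siRNA (0.34 ± 0.06, adjusted p = 0.0130). SAMD9L thus passed the test at signals so low that its level cannot be told from background. ISG20, an exonuclease that degrades single-stranded RNA, rose by 0.50 ± 0.08, with 5.77 and 5.85 on the CDK8 siRNA arrays and 5.38 and 5.24 on the control siRNA arrays. RSAD2, the enzyme viperin that makes a chain terminator of viral RNA synthesis, read 3.42 and 3.37 with CDK8 siRNA and 3.23 and 3.28 with control siRNA (0.14 ± 0.06, adjusted p = 0.180). XAF1, a pro-apoptotic partner of the inhibitor XIAP, differed by 0.14 ± 0.08 (adjusted p = 0.313).

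The ADP-ribosyltransferase genes of the list and DTX3L rose in 4 of 5 cases, where 14.3% of all genes were called higher. PARP14, which carries macrodomains and acts on STAT signalling, read 9.17 and 9.36 with CDK8 siRNA and 7.61 and 7.60 with control siRNA (1.66 ± 0.08, 3.16-fold). PARP12, which restricts RNA viruses, read 7.44 and 7.57 with CDK8 siRNA and 6.30 and 6.30 with control siRNA (1.21 ± 0.07). PARP9 and its partner ubiquitin ligase DTX3L, adjacent genes whose proteins form a complex, rose by 0.93 ± 0.07 and 1.07 ± 0.08. DTX3L read 8.12 and 8.25 with CDK8 siRNA and 7.07 and 7.16 with control siRNA, and the PARP9 arrays stood at 6.74 and 6.73 with CDK8 siRNA and 5.87 and 5.74 with control siRNA. The pair therefore differed by similar amounts, with 95% intervals of 0.87 to 1.27 for DTX3L and 0.74 to 1.12 for PARP9. PARP10 was the exception, with 3.50 and 3.59 with CDK8 siRNA and 3.47 and 3.49 with control siRNA (0.07 ± 0.07, adjusted p = 0.532). Its signals lay below the floor in both groups, so a lack of response by an expressed gene cannot be read from them.

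The membrane proteins of the IFITM family, which hinder fusion of virus with endosomes, rose in all 3 genes, against 14.3% of all genes. IFITM3 read 15.11 and 15.00 with CDK8 siRNA and 13.93 and 13.77 with control siRNA (1.21 ± 0.09). IFITM2 read 14.53 and 14.40 with CDK8 siRNA and 13.35 and 13.20 with control siRNA (1.19 ± 0.09). These paralogs are nearly identical in sequence, so their probes may pick up each other's transcripts and the differences may not be separate. IFITM1, the member found at the cell surface, read 6.77 and 6.64 with CDK8 siRNA and 5.95 and 6.18 with control siRNA (0.64 ± 0.10, adjusted p = 0.00989). BST2, tetherin, which holds budding virus at the cell surface, read 3.34 and 3.33 with CDK8 siRNA and 3.34 and 3.29 with control siRNA (0.02 ± 0.06, 95% interval -0.14 to 0.18).

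**Figure D2:**
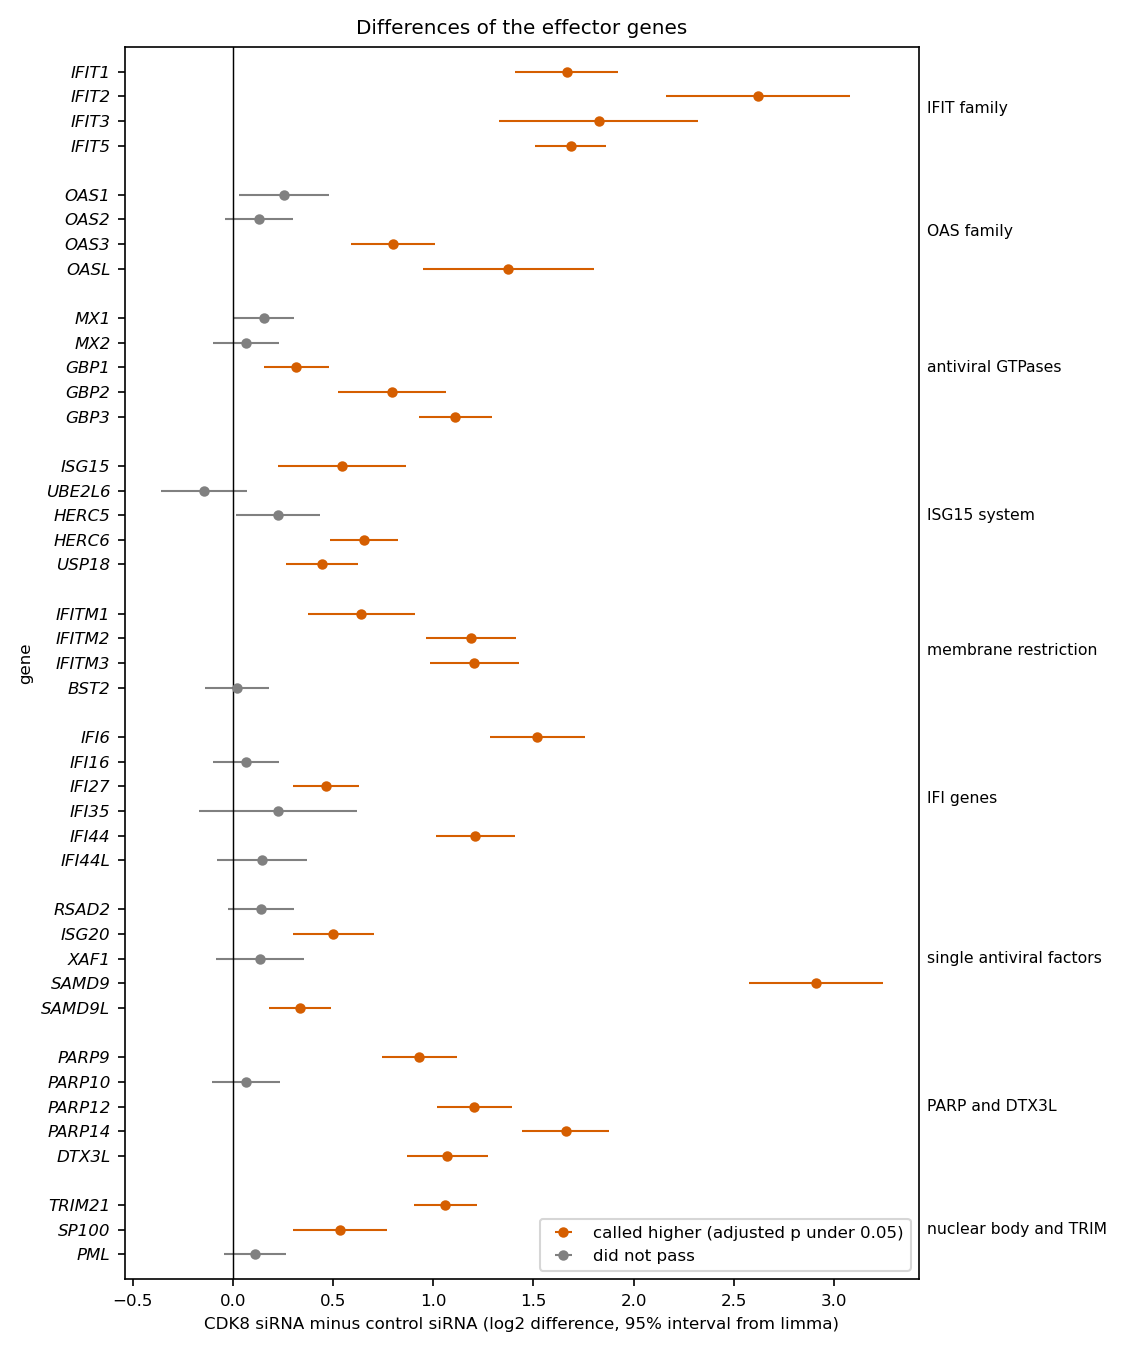
Log2 difference of CDK8 siRNA minus control siRNA for each of the 41 effector genes, with the 95% interval from limma, which is not adjusted for the number of genes. The 27 orange genes passed the test and all lie to the right of 0, led by SAMD9 at 2.91 and IFIT2 at 2.62, and the 14 grey genes did not pass.

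Among the IFI genes IFI6 rose 2.87-fold, from signals that were clear in both groups. IFI6, a membrane protein that blocks flavivirus replication and apoptosis, read 10.50 and 10.30 with CDK8 siRNA and 8.92 and 8.84 with control siRNA (1.52 ± 0.09). IFI44, a cytoplasmic protein that restrains virus replication, read 5.11 and 5.17 with CDK8 siRNA and 4.0 and 3.86 with control siRNA (1.21 ± 0.08). Its neighbour and paralog IFI44L read 3.43 and 3.61 with CDK8 siRNA and 3.42 and 3.33 with control siRNA (0.15 ± 0.09, adjusted p = 0.299). So 1 gene of this adjacent pair passed and the other did not, and the difference between the 2 genes was not tested. IFI27, a mitochondrial protein, rose by 0.47 ± 0.06, with 4.49 and 4.43 on the CDK8 siRNA arrays and 4.02 and 3.97 on the control siRNA arrays. IFI35, a partner of NMI, read 6.18 and 5.82 with CDK8 siRNA and 5.90 and 5.65 with control siRNA (0.23 ± 0.15, adjusted p = 0.353), and its groups overlapped. IFI16, a sensor of nuclear DNA, differed by 0.07 ± 0.06 (adjusted p = 0.515) at signals of at most 3.38.

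The OAS enzymes sense double-stranded RNA and make a second messenger that leads to RNA degradation, and 2 of their 4 genes rose. Among all genes 14.3% were called higher. OASL, a relative without that enzymatic activity that enhances RIG-I signalling, read 6.60 and 6.44 with CDK8 siRNA and 4.92 and 5.37 with control siRNA (1.38 ± 0.16). OAS3 read 6.68 and 6.71 with CDK8 siRNA and 5.81 and 5.98 with control siRNA (0.80 ± 0.08, 1.74-fold). OAS1 and OAS2, which flank OAS3 in the genome, did not pass. OAS1 read 4.27 and 4.44 with CDK8 siRNA and 4.15 and 4.05 with control siRNA (0.26 ± 0.09, adjusted p = 0.0925), and OAS2 differed by 0.13 ± 0.07 (adjusted p = 0.222).

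Of the antiviral GTPases the guanylate-binding proteins GBP1, GBP2 and GBP3, which attack the vacuoles and membranes of intracellular pathogens, rose and the dynamin-like MX1 and MX2 did not pass. GBP3 read 5.42 and 5.54 with CDK8 siRNA and 4.37 and 4.37 with control siRNA (1.11 ± 0.07, 2.16-fold). GBP2 read 4.53 and 4.27 with CDK8 siRNA and 3.57 and 3.64 with control siRNA (0.80 ± 0.10), and GBP1 rose by 0.32 ± 0.06 with no array above 4.0. MX1, which traps incoming viral nucleocapsids and is widely used as a marker of interferon action, read 4.13 and 4.13 with CDK8 siRNA and 3.98 and 3.97 with control siRNA (0.16 ± 0.06, adjusted p = 0.123). MX2, which blocks nuclear entry of retroviruses, differed by 0.07 ± 0.06 (adjusted p = 0.520). The MX pair thus had non-overlapping arrays but differences whose 95% intervals reached no higher than 0.31 for MX1 and 0.23 for MX2. Both genes lay below the floor in both groups, so these intervals do not bound a change in their transcripts.

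The ISG15 system attaches the ubiquitin-like protein ISG15 to other proteins, and its changes were small, with 3 of 5 genes higher and none of them doubled. All 5 lay at or above the floor defined further on in control siRNA cells, where 20.6% of all genes were called higher. ISG15 itself read 5.07 and 5.37 with CDK8 siRNA and 4.60 and 4.75 with control siRNA (0.55 ± 0.12, adjusted p = 0.0284). USP18, the protease that removes ISG15 and restrains the type I interferon receptor, read 6.49 and 6.51 with CDK8 siRNA and 6.11 and 6.0 with control siRNA (0.45 ± 0.07). HERC6, a relative of the ISG15 ligase, rose by 0.66 ± 0.07, while HERC5, the human ISG15 ligase and its neighbour in the genome, differed by 0.23 ± 0.08 (adjusted p = 0.111). UBE2L6, the conjugating enzyme for ISG15, had a negative difference, with 6.13 and 6.07 with CDK8 siRNA and 6.33 and 6.16 with control siRNA (-0.15 ± 0.08, adjusted p = 0.274). Among genes of nuclear bodies and TRIM proteins, TRIM21, a cytosolic antibody receptor and ubiquitin ligase, rose by 1.06 ± 0.06, with 6.79 and 6.83 on the CDK8 siRNA arrays and 5.74 and 5.76 on the control siRNA arrays. SP100, a nuclear body component, rose by 0.54 ± 0.09, and PML, the organiser of those bodies, differed by 0.11 ± 0.06 (adjusted p = 0.249).

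Expressed and silent effector genes differed in how often they passed. A floor was set at 4.24, the median over all transcript clusters of the mean control siRNA signal, and 16 effector genes lay below it in control siRNA cells while 25 reached it. IFIT1 stood just below the floor with a control mean of 4.13, and GBP3 just above it with 4.37. The floor is a median and not a measured background, so silent here means only below the floor. Of the 25 genes at or above the floor 21 rose and 4 did not pass (HERC5, IFI35, PML and UBE2L6), with a median difference of 1.06, where 20.6% of all genes at or above the floor were called higher. Of the 16 genes below it 6 rose and 10 did not pass, with a median of 0.15, where 3.93% of all such genes were called higher. The floor and the differences share the control arrays, and RMA compresses differences at low signal, so these shares are descriptions.

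The 16 silent genes fall into 5 that crossed the floor with CDK8 siRNA and 11 that lay below it in both groups. Against the floor, with IFIT1 and the others set to 4.24 in control siRNA cells, IFIT1 was at least 2.93-fold higher with CDK8 siRNA, IFI44 at least 1.87-fold, IFI27 at least 1.16-fold and GBP2 at least 1.12-fold. OAS1 also crossed the floor but did not pass. Of the 11 genes below the floor in both groups GBP1 and SAMD9L passed, and BST2, IFI16, IFI44L, MX1, MX2, OAS2, PARP10, RSAD2 and XAF1 did not. The differences of these 11 genes ran between 0.02 and 0.34, and the arrays did not overlap, with CDK8 siRNA higher, in 10 of them. Of all 7972 genes below the floor in both groups 36.6% had no overlap in that direction, and their median difference was 0.06. The median signals of the arrays themselves were 4.32 and 4.31 with CDK8 siRNA and 4.24 and 4.24 with control siRNA. With arrays centred on their medians MX2, IFI16 and PARP10 had differences of -0.01 and BST2 of -0.055. The rest of the 11 genes then ran between 0.055 and 0.26.

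**Figure D3:**
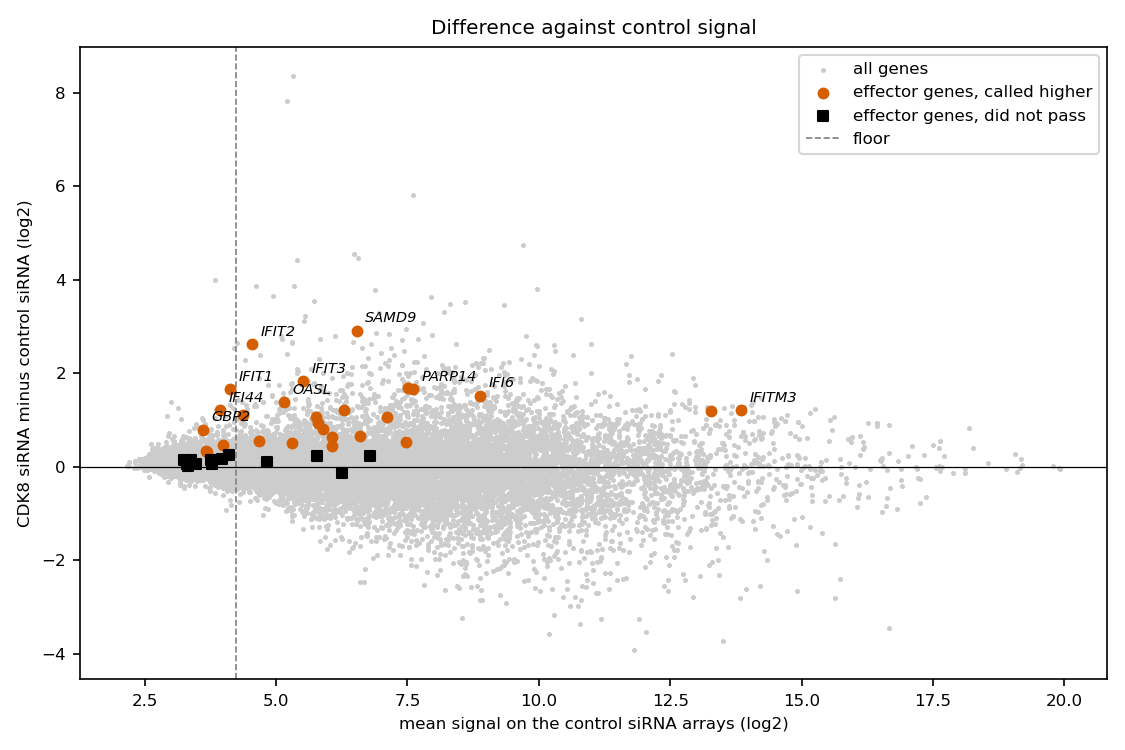
Log2 difference of CDK8 siRNA minus control siRNA (y axis) against the mean signal of the control siRNA arrays (x axis) for all 22411 genes in grey, with the effector genes called higher as orange circles and those that did not pass as black squares. The dashed line is the floor of 4.24, and 10 of the 14 black squares lie to its left.

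Promoter sequences were read from RefSeq windows of 300 bases on GRCh38.p14, from 250 bases before to 50 bases after an annotated transcript start, on the strand of the gene. Such windows were at hand for 32 of the 42 effector genes. They are shown for SAMD9, IFIT3, IFIT5 and IFIT1, the genes with the largest rises among those with a window, and, chosen after their values were seen, for RSAD2 and MX1, which were silent and did not pass. Capitals mark the core of the interferon-stimulated response element, which is 2 copies of GAAA with any 2 bases between them or, on the other strand, 2 such copies of TTTC. Where a gene had several windows the first along the chromosome with a match is given. The windows are chr7:93117930-93118229 (minus strand) for SAMD9, chr10:89327747-89328046 (plus) for IFIT3, chr10:89414318-89414617 (plus) for IFIT5, chr10:89392373-89392672 (plus) for IFIT1, chr2:6877527-6877826 (plus) for RSAD2 and chr21:41420308-41420607 (plus) for MX1.
SAMD9: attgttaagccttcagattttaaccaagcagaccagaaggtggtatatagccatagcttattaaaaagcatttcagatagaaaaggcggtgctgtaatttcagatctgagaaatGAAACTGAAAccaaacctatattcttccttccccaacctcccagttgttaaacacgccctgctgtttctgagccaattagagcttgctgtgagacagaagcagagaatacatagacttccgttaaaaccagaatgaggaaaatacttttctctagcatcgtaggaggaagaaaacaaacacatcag
IFIT3: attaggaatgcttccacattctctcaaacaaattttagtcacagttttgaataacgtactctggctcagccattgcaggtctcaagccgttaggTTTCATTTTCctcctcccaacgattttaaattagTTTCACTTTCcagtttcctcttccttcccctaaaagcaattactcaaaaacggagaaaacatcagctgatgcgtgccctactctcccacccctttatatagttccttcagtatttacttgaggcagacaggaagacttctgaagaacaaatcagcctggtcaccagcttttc
IFIT5: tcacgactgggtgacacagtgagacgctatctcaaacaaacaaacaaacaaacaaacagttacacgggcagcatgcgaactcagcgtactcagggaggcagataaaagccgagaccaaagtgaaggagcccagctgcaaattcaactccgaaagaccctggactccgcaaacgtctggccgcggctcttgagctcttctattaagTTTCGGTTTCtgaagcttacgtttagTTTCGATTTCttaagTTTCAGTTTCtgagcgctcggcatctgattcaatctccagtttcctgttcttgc
IFIT1: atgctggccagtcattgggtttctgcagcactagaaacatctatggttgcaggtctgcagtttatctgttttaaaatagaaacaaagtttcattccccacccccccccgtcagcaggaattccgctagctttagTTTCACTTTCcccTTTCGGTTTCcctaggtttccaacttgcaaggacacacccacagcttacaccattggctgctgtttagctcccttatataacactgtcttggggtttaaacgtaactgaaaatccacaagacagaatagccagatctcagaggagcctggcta
RSAD2: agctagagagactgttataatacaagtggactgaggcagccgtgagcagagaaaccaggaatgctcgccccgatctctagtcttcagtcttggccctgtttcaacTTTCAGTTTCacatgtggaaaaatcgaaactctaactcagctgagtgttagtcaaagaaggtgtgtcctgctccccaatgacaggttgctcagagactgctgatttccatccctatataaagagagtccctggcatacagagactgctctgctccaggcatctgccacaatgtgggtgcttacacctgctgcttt
MX1: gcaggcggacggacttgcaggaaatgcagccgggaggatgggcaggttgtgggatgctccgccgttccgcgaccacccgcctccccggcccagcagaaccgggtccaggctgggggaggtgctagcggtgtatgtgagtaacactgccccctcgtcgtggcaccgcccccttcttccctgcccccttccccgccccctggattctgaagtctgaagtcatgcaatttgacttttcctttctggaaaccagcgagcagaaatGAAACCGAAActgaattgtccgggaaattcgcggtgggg

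The element core occurred 3 times in the IFIT5 window, 2 times in those of IFIT1 and IFIT3 and 1 time in those of SAMD9, RSAD2 and MX1. In SAMD9 it began 136 bases before the transcript start, in RSAD2 145 bases before it, and in MX1 it lay after the start. At least 1 window with a match was found for 24 of the 32 effector genes, against 637 of 15374 tested genes with a window (4.14%). A match was present in 19 of the 22 genes that rose and in 5 of the 10 that did not pass. The 3 risers without one were HERC6, SAMD9L and SP100, and the 5 genes with one that did not pass were BST2, HERC5, IFI44L, MX1 and RSAD2. The gamma-activated site TTCNNNGAA, which STAT dimers bind and which reads the same on both strands, was found in 8 of the 32 genes, 4 among those that rose, against 9.12% of all genes. A match to the NF-κB consensus on either strand occurred in 5 of the 32 genes (15.6%), against 15.7% of all genes. Windows with 2 kinds of match are counted under each, and a match describes letters in the window, not binding.

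The effector genes sit partly in clusters of paralogs, and 13 pairs are direct neighbours among protein-coding genes in RefSeq. In 8 of these pairs both genes rose, including IFIT2 with IFIT3, IFIT1 with IFIT5, PARP9 with DTX3L and SAMD9 with SAMD9L. Those 8 also include GBP3 with GBP1, GBP1 with GBP2, IFITM2 with IFITM1 and IFITM1 with IFITM3, so some genes are counted in more than 1 pair. SAMD9L and GBP1 lay below the floor in both groups, so for them a rise cannot be told from background. The share of such pairs over all genes was not computed. Since 27 of the 41 effector genes were called higher, the number of such pairs is not a separate result. In 4 pairs 1 gene rose and the other did not pass, namely IFI44 with IFI44L, OAS3 with OAS1, OAS3 with OAS2 and HERC6 with HERC5. In the MX2 and MX1 pair both did not pass. In each of the first 3 of those split pairs the gene that did not pass lay below the floor in control siRNA cells, while HERC5 did not.

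The rest of the interferon pathway was counted from lists of 89 genes, of which 79 had a transcript cluster of their own. IRF9 was not analysed here. Of 14 interferon genes 1 rose and 13 did not pass, where 14.3% of all genes were called higher. The riser was IFNE, an interferon of epithelial cells best known from the reproductive tract, with 7.35 and 6.80 with CDK8 siRNA and 5.25 and 5.34 with control siRNA (1.78 ± 0.19, adjusted p = 0.00269). The other 13 interferon genes lay below the floor in both groups, among them IFNK (0.21 ± 0.06, adjusted p = 0.0622) and IFNA2 (0.26 ± 0.12, adjusted p = 0.202). Of 5 interferon receptor chains 4 rose, namely IFNGR1 of the type II receptor (1.50 ± 0.07), IFNAR1 of the type I receptor (0.69 ± 0.06), IL10RB of the type III receptor (0.34 ± 0.07) and IFNGR2 (0.32 ± 0.08). All 5 chains lay at or above the floor in control siRNA cells, where 20.6% of all genes were called higher.

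Among 9 JAK, STAT and IRF genes 5 rose, 1 fell and 3 did not pass. The shares of all genes called higher and lower were 14.3% and 15.5%. These 9 genes lay at or above the floor in control siRNA cells, where 20.6% of all genes were called higher. STAT3, which transmits IL-6 and related signals, rose by 1.49 ± 0.06, IRF1, a transcription factor that can induce effector genes by itself, by 0.82 ± 0.09, and the receptor kinases JAK2 and JAK1 by 0.68 ± 0.10 and 0.63 ± 0.08. Of 12 nucleic acid sensors and adaptors 8 rose, 1 fell and 3 did not pass. IFIH1, the sensor MDA5 of long double-stranded RNA, read 8.76 and 8.81 with CDK8 siRNA and 5.54 and 5.57 with control siRNA, and TLR3, the endosomal sensor of double-stranded RNA, read 6.72 and 6.93 with CDK8 siRNA and 5.68 and 5.60 with control siRNA (1.19 ± 0.09). TBK1, the kinase that activates IRF3, rose by 1.05 ± 0.07 and RIGI, the sensor of RNA ends, by 1.72 ± 0.07. IRF3 itself was the gene that fell among the JAK, STAT and IRF genes (-0.48 ± 0.08, adjusted p = 0.00908). Among the sensors and adaptors MAVS fell, with 7.46 and 7.21 with CDK8 siRNA and 8.46 and 8.27 with control siRNA (-1.03 ± 0.12, adjusted p = 0.00331). The adaptors TICAM1 (0.88 ± 0.15) and STING1 (0.38 ± 0.08) rose. The sensors DHX58, CGAS and ZBP1 did not pass and lay below the floor in both groups. Sensors and adaptors were thus both found among the risers and among the other genes of this list.

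Of 6 feedback genes 0 rose, 2 fell and 4 did not pass, with 0 higher and 2 lower at an unadjusted p under 0.05 in limma. Of all genes 15.5% were called lower, and 19.0% were lower at that unadjusted p. PTPN6, a phosphatase that acts on JAK kinases, fell by 0.51 ± 0.06 and PIAS1, a SUMO ligase that restrains STAT proteins, fell by 0.64 ± 0.10. PTPN2 (-0.09 ± 0.08) and SOCS3 (-0.09 ± 0.16) did not pass. SOCS3 stood just above the floor of 4.24, with means of 4.295 with CDK8 siRNA and 4.38 with control siRNA, and 2 of the 6 genes lay below it in both groups. USP18, which also restrains interferon signalling, was counted with the ISG15 system and rose by 0.45 ± 0.07. A list of 33 further interferon-stimulated genes was split, with 7 higher, 3 lower and 23 that did not pass and a median of 0.14. ZC3HAV1, the zinc finger protein ZAP that recognises viral RNA, rose by 1.65 ± 0.09, TAP1, the peptide transporter of antigen presentation, by 1.39 ± 0.10, and TRIM14, an adaptor of antiviral signalling, by 0.87 ± 0.07, while the helicase gene DDX60 fell by 0.66 ± 0.06. That list had 21.2% of its genes called higher, against 65.9% of the effector genes and 14.3% of all genes, and the difference between the lists was not tested.

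**Figure D4:**
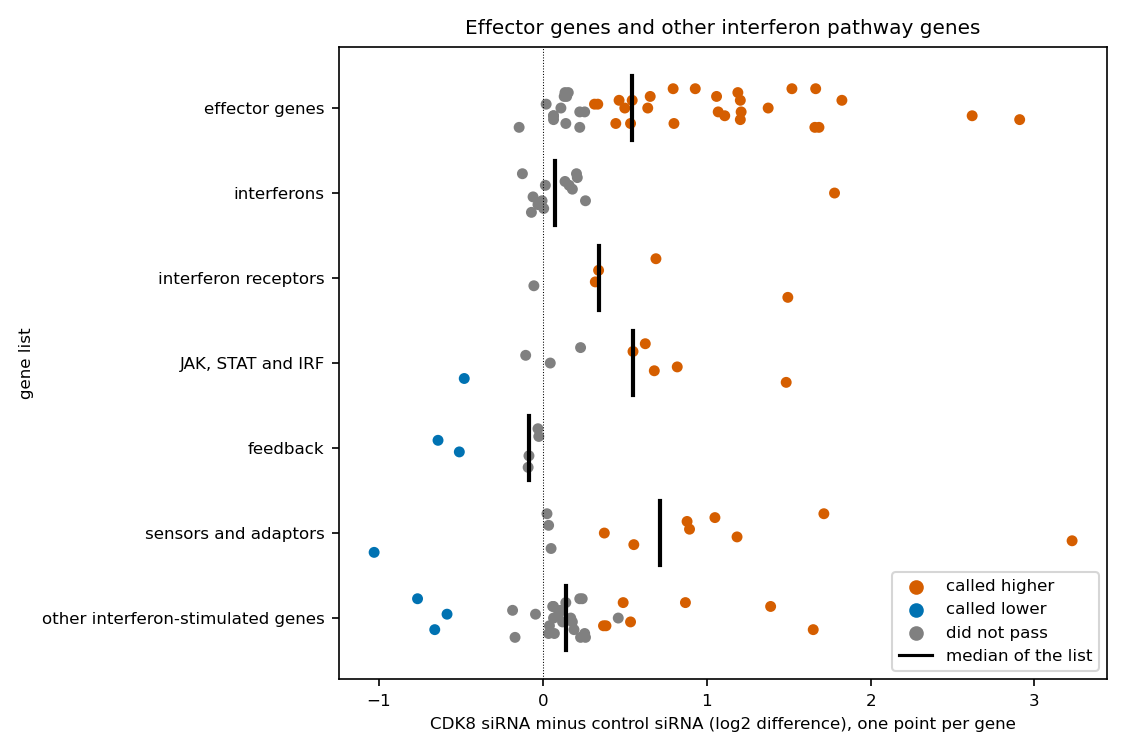
Log2 difference of CDK8 siRNA minus control siRNA (x axis) for the 41 effector genes and 6 lists of other interferon pathway genes, 1 point per gene, coloured by the call, with a black line at the median of each list. The medians run between -0.09 for feedback genes and 0.72 for sensors and adaptors, and the interferon genes other than IFNE lie near 0.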

How the data were processed

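RNA of 4 HCT116 samples was hybridised to Affymetrix whole-transcriptome arrays after TRIzol extraction and WT PLUS labelling, per the labels' protocols. The authors' deposited values were log2 signals, and the submitters' processing notes name RMA and Affymetrix Expression Console without a version. Settings and the array's genome build are not stated in the sources used here. RMA corrects background, brings arrays to a shared distribution and merges probes into 1 value, and no detection calls were used. Of 70523 deposited rows 67528 were transcript clusters, of which 23781 carried 1 gene symbol in the platform annotation, 1543 several and 42204 none. Of the 23781 symbols 23777 matched the RefSeq table of GRCh38.p14 and 306 were updated. The brightest cluster stood for each of the 22411 genes, with no filter on signal, and 0 of the effector genes had more than 1.

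The comparison used lmFit and eBayes of limma 3.58.1 under R 4.3.3 without covariates. Its p-values were adjusted by Benjamini-Hochberg over all 22411 genes, with a threshold of 0.05. Groups and replicate numbers came from the sample titles. The fit was tested on simulated data, and figures were drawn with matplotlib 3.10.9. The list members, pathway lists and tests were chosen with earlier results of these data known, so the direction of the list is not independent evidence. By rule every effector gene could be named, and values per array were given at least for the 12 largest called differences. Up to 4 genes with the smallest p were named from each pathway list. IRF3 and MAVS were named beyond that rule, after their values were seen, as the genes that fell in their lists. TICAM1, STING1, DHX58, CGAS and ZBP1 were also named beyond it, after their values were seen. Alternatives were filters on signal, other normalizations, other eBayes settings, the mean of a gene's clusters, the replicate number as a block, other thresholds, another floor and leaving out each array.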

Additional observations from a re-analysis of the deposited data

How the results depend on the processing

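The number of effector genes called higher was 27 with quantile normalization, with centred arrays and with either other eBayes setting. It was also 27 with the mean of a gene's clusters. That setting leaves the values of the effector genes unchanged, since 0 of them had more than 1 cluster. The number was 23 at a threshold of 0.01 and 23 with a signal filter at the median of 4.28, which tested 27 of the 41. With a filter at the 75th percentile (6.17), which tested 18, it was 16, and with a required difference of at least 1 it was 15. The median difference was 1.07 under both filters, in part since filters drop silent genes. Each filter averaged signal over CDK8 siRNA and control siRNA arrays alike, which favours genes that rose. IFIT1 and IFI44, with control siRNA means of 4.13 and 3.93, passed the filter at 4.28 only through their CDK8 siRNA signal. IFIT3, OAS3, PARP9, TRIM21, IFITM1 and USP18 passed that at 6.17 in the same way. The effector gene counts and medians under these filters are thus partly set by the filters themselves. Over all genes 3229 of 13956 (23.1%) were called higher with the filter at the median and 2593 of 8479 (30.6%) with that at the 75th percentile, against 3212 of 22411 (14.3%) with neither. Among genes below the floor in control siRNA cells 2 were called higher with the filter at the median, 0 with the filter at the 75th percentile and 2 with a required difference of 1, and among those at or above the floor that requirement left 13. With the floor at the 60th percentile (4.77) 9 of 19 silent and 18 of the other genes were called higher. With the replicate number as a block 24 effector genes were called higher and 0 lower. The numbers do not pair the samples beyond sharing a label (r = 0.07 between deviations of same-numbered arrays, over 2 pairs), and the block was not adopted.

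With 1 array left out the lone array is assumed to vary like the other group. The counts then ran between 0 and 14 for all effector genes, 0 and 3 for those below the floor and 0 and 11 for those at or above it, and the count of lower genes was 0 throughout. The CDK8 difference ran between -2.77 and -2.57, and its adjusted p was 0.0520 without control siRNA replicate 2. Of the 27 called genes 0 kept the call with every array left out and 11 lost it with each array. Of the values of single effector genes 0 reversed among called ones under any alternative. Over all genes the counts of 3212 higher and 3467 lower became 1062 and 1207 when CDK8 siRNA replicate 1 was left out and 1101 and 1210 for CDK8 siRNA replicate 2. They became 488 and 531 when control siRNA replicate 1 was left out and 0 and 0 for control siRNA replicate 2 (3071 and 3401 at an unadjusted p under 0.05 in limma). They were 2637 and 4211 with centred arrays, 2955 and 3781 with quantile normalization, 2273 and 2573 with the block, 1815 and 2176 at a threshold of 0.01, and 714 and 788 with a required difference of 1.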
